A study of Mus musculus with 6 samples.

Results

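Acaa2, Gpi1, Cpt1a, Apoe and Pex11a are 5 genes of lipid and energy metabolism that have an mRNA probe on an array otherwise built for circular RNAs (circRNAs). They were taken as a list of names, each through its one probe, and they are 5 of the 46 genes that could be named through the array's 50 mRNA probes, beside 14236 circRNA probes. The probes are A_51_P125260 for Acaa2 (RefSeq transcript NM_177470), A_51_P426886 for Gpi1 (NM_008155), A_51_P427674 for Cpt1a (NM_013495), A_51_P171999 for Apoe (NM_009696) and A_51_P456957 for Pex11a (NM_011068). Apoe and Pex11a were well above background on all 6 arrays in IP and supernatant alike, Acaa2 in both channels of 2, Gpi1 in both channels of 2 and Cpt1a in both channels of 0. None of the 5 passed the test between groups. Acaa2 had the widest spread in its ratio over the arrays, and that spread turned on the first control array. Its supernatant signal was dim there, and that array also stood apart in its circRNA ratios.

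The heart takes most of its energy from fatty acids. Cpt1a, the carnitine palmitoyltransferase best known from liver, loads long-chain fatty acids onto carnitine for entry into mitochondria, and Acaa2, a thiolase, carries out the last step of each round of mitochondrial beta-oxidation. Pex11a is a peroxisomal membrane protein that takes part in peroxisome division, Apoe is a lipoprotein component that carries cholesterol and other lipids, and Gpi1, glucose-6-phosphate isomerase, catalyses an early step of glycolysis. N6-methyladenosine (m6A) is a methyl mark on adenosine in RNA. An antibody against it separates RNA into an immunoprecipitated fraction (IP) and a supernatant, and the ratio of both signals is used as a relative measure of how far a transcript is methylated.

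The samples were hearts of BALB/c mice, 3 labelled control and 3 labelled CIH, for chronic intermittent hypoxia, which the series uses to model sleep apnea. Mice of that group had O2 brought down to 6% for 60 s and back to 21% for 60 s, in cycles of 2 min, 30 per h, 8 h per day, for 8 weeks. The labels give neither the age of the animals nor the air of the control group, and they do not say that replicates were separate animals, so the spread the tests rest on may be technical. IP RNA was labelled with Cy5 (red) and supernatant RNA with Cy3 (green) on every array, with 0 dye swaps. Both fractions had been treated with RNase R, which digests linear but not circular RNA, so a probe for a linear mRNA reads what remained after that step. For these hearts the labels describe extraction with a kit made for blood, followed by globin depletion.

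Each of the 5 probes was printed as 10 spots. A spot counts as well above background by the scanner software's own flag, and a probe was called so on an array when more than 50% of its used spots carried the flag, otherwise dim. Of the 300 spots of the 5 probes over the 6 arrays, 22 carried an outlier mark and were left out, and 0 were saturated. All signals below are on the log2 scale relative to the 75th percentile of the circRNA probes of the same array and channel, and all ratios are log2 of IP over supernatant, relative to the median circRNA of the array. A ratio of 0 is therefore that of the array's median circRNA, and no signal level is set against another probe's, since probes differ in their own response. Where a ratio is placed among those of circRNAs, that position includes how the probe responds to each dye.

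**Figure D1:**
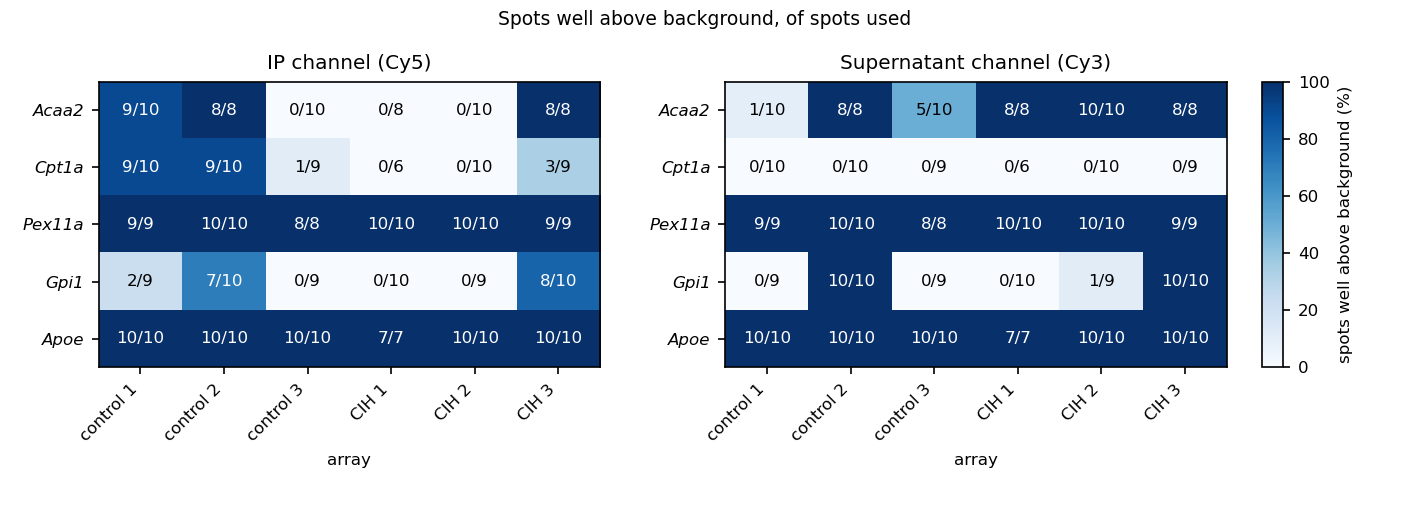
Number of spots well above background out of the spots used, for each of the 5 probes (rows) on each of the 6 arrays (columns), in the IP channel and in the supernatant channel. Apoe and Pex11a pass on all arrays in both channels, while Acaa2, Gpi1 and Cpt1a pass on 3, 2 and 2 arrays in the IP channel and on 4, 2 and 0 in the supernatant channel.

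The detection of Acaa2 differed from array to array. In the IP channel it was well above background on control 1 (9 of 10 spots), control 2 (8 of 8) and CIH 3 (8 of 8), and at 0 flagged spots on control 3, CIH 1 and CIH 2. In the supernatant it was well above background on control 2 and on all CIH arrays, with every used spot flagged. It was dim there on control 1 (1 of 10 spots) and control 3 (5 of 10). Control 2 and CIH 3 were thus the arrays on which both signals of the Acaa2 ratio were measured above background.

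Gpi1 was well above background on control 2 and CIH 3, in both channels, and dim on the other 4 arrays. Cpt1a was well above background in the IP channel of control 1 and control 2, with 9 of 10 spots each. On control 3 and CIH 1, 2 and 3 its IP counts were 1 of 9, 0 of 6, 0 of 10 and 3 of 9 spots. In the supernatant not 1 Cpt1a spot was flagged on any array. The Cpt1a ratio thus has a dim supernatant on every array.

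The margin over background separated the probes in the same way. The median spot signal of Pex11a over the 6 arrays was 381 to 527 times its local background for IP and 135 to 257 times for supernatant, and that of Apoe 7.89 to 22.3 times and 9.52 to 22.4 times. Acaa2 lay at 1.61 to 2.49 times for IP and 2.33 to 5.55 times for supernatant. Gpi1 (1.55 to 2.19 and 2.11 to 3.49 times) and Cpt1a (1.83 to 2.37 and 2.04 to 2.78 times) were nearest to background.

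Control 1 stood apart in its ratios over the whole array. The SD of its circRNA log2 ratios was 0.35, against 0.68 or more on the others, and across the 3096 circRNAs that passed on every array in IP and supernatant it correlated with the others at r = 0.32 to 0.46. The differences below are therefore given with and without it. Control 1 to 3 and CIH 1 lay on slide 1, and CIH 2 and 3 on slide 2. Groups were compared with limma over all circRNA and mRNA probes that were well above background on at least 3 arrays. For the ratio either channel counted, and for a signal its own channel. Acaa2 thus entered the ratio test with both channels above background on 2 arrays. Benjamini-Hochberg adjustment was over all probes tested, with a threshold of 0.05.

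In the log2 ratio 3 of the 5 genes could be tested (Acaa2, Apoe and Pex11a) and 0 passed, as for 0% of all 6924 probes in the limma fit. The count among the 3 was also 0 at an unadjusted p under 0.05, where limma had 90 of the 6924 probes. In the IP signal 0 of the same 3 passed, against 1.42% of 6282 probes, and in the supernatant signal 0 of 3, against 0% of 5432. At an unadjusted p under 0.05, limma and the per-probe test without moderation both gave 0 of the 3 in both of these measures as well. Over all probes limma had 633 of 6282 in the IP signal and 252 of 5432 in the supernatant signal. Without moderation these counts were 574 and 210. Gpi1 and Cpt1a were too dim to enter. Scaled this way, the median difference over all tested probes was -0.13 in the IP signal and -0.13 in the supernatant signal. With spike-in scaling these medians were 0.17 and 0.19, and single signal differences are to be read against them. In a bulk heart sample, fewer cells of a type and less RNA per cell cannot be told apart.

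The Acaa2 log2 ratio was 0.27, -1.91 and -2.02 on control 1, 2 and 3, and -2.31, -2.71 and -2.51 on CIH 1, 2 and 3. All CIH arrays lay below all control arrays, and control 1 lay apart from the other 5, with a dim supernatant in its ratio. Control 3, CIH 1 and CIH 2 were also dim in at least 1 channel, so the order of the dim arrays cannot be read. The arrays with both channels above background had -1.91 (control 2) and -2.51 (CIH 3), 1 array a group. Groups apart in the lower direction were seen for 2.22% of the probes tested in the ratio. Mean ratios were -1.22 ± 1.29 for control and -2.51 ± 0.20 for CIH (SD, n = 3), with a difference of -1.29 with an SE of 0.63 (95% confidence interval -2.75 to 0.16; limma adjusted p = 0.999, with 0.832 the lowest over the alternatives).

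Without control 1 the control mean of Acaa2 was -1.96 ± 0.07 (SD, n = 2) and the difference was -0.55 with an SE of 0.35. Its interval ran from -1.35 to 0.26 (limma adjusted p = 0.832), and 0 of the 3 tested genes passed, against 0.0159% of 6284 probes. In the IP signal without control 1, 0 of the 2 genes still tested passed, against 0.669% of 5530 probes. The values of the groups remained apart without that array, as did 8.94% of all probes tested there in the same direction. Of the arrays left, only control 2 and CIH 3 were above background in both channels. Without control 3, and with control 1 kept, the difference was -1.69 (interval -3.21 to -0.18, limma unadjusted p = 0.0330, adjusted p = 0.997). With slide as a block, which compares the 3 control arrays with CIH 1 on slide 1, the difference was -1.10. With normexp background correction, which also added an offset of 50 and left out dye normalization, it was -0.11 with an SE of 0.15. There the control and CIH means were -0.24 and -0.35, so this difference is not on the scale of the main setting. Without dye normalization alone the difference was -1.32.

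In the supernatant Acaa2 was dim on control 1 and control 3 and well above background on the other 4 arrays. Its log2 supernatant signal was -1.78, 0.92 and -0.31 in control and 0.46, 0.97 and 1.15 in CIH. Control 2, the control array measured above background, lay within the CIH range. The means were -0.39 ± 1.35 and 0.86 ± 0.36 (SD, n = 3), a difference of 1.25 with an SE of 0.62 (interval -0.17 to 2.68; limma adjusted p = 0.685, with 0.260 the lowest over the alternatives). Without control 1 the difference was 0.56 (interval -0.33 to 1.45; limma adjusted p = 0.938). Without control 2, which leaves the 2 dim control arrays, it was 1.91 (interval 0.70 to 3.11, limma unadjusted p = 0.00829, adjusted p = 0.260). With the replicate number as a block the interval was 0.17 to 2.34 (limma unadjusted p = 0.0291, adjusted p = 0.673). With no filter on dim probes the interval was 0.31 to 2.19 (limma unadjusted p = 0.0106, adjusted p = 0.494).

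In the IP channel Acaa2 was at -1.59, -0.96 and -2.36 in control and -1.91, -1.63 and -1.33 in CIH. The groups overlapped and control 1 lay inside the range of the others. The difference was 0.02 with an SE of 0.46 (interval -0.98 to 1.02; limma adjusted p = 0.991). Its sign depended on the setting: without control 3, an array on which the IP signal of Acaa2 was dim, it was -0.35. Without control 1 Acaa2 could not be tested in the IP channel, since under 3 arrays remained well above background; the plain difference was 0.04.

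**Figure D2:**
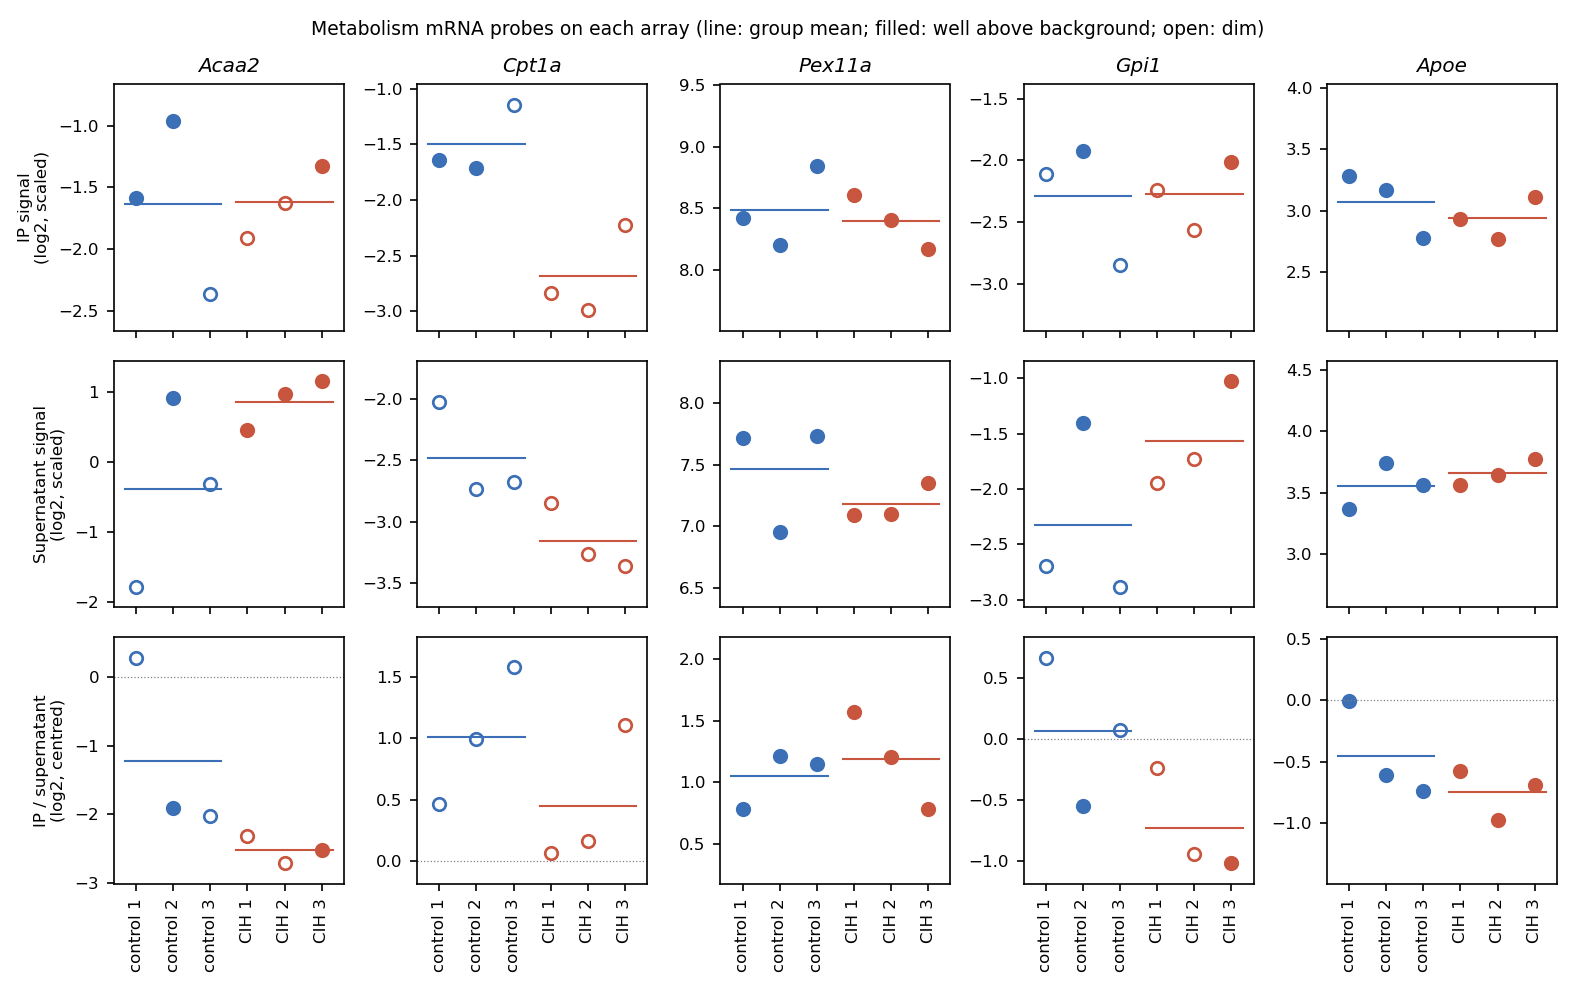
Log2 IP signal, log2 supernatant signal and log2 ratio of IP over supernatant (rows from top to bottom, each panel with its own vertical axis) of the 5 probes (columns) on each array, control in blue and CIH in red, with lines for the group means. Filled points are well above background and open points dim (for the ratio, dim in at least one of its channels). The Acaa2 ratio on control 1 (0.27) stands above the other 5 arrays, which lie between -2.71 and -1.91.

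The spots of Acaa2 show the same split within each array. On control 1 the 10 spots had log2 ratios from -0.56 to 1.29. The highest spot on any other array was -1.37, on control 3. The SD over spots of one array ran from 0.13 to 0.54 (median 0.39), and all spots of control 1 lay above those of the other arrays. The supernatant signal behind the control 1 spots was dim, although all 54 used Acaa2 spots were marked by the scanner software as positive and significant in that channel. Among circRNAs that passed in IP and supernatant on the same array, 77.1% had a lower ratio than Acaa2 on control 1 and 2.19% to 6.73% on the other 5, Acaa2 itself being above background in both channels on control 2 and CIH 3.

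**Figure D3:**
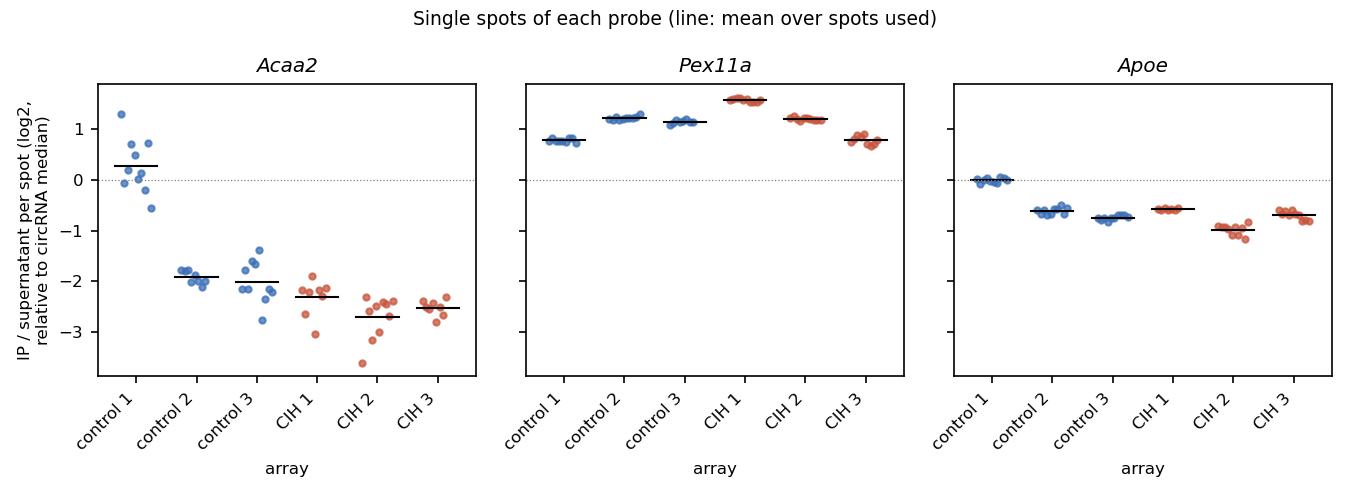
Log2 ratio of IP over supernatant of every used spot (points) of Acaa2, Pex11a and Apoe on each array, with a line at the array's mean over spots, control in blue and CIH in red. The spots of Apoe and Pex11a lie close together on each array, while those of Acaa2 scatter, and the Acaa2 spots of control 1 (-0.56 to 1.29) lie above all Acaa2 spots of the other arrays.

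Cpt1a, at the mitochondrial gate for long-chain fatty acids, had log2 IP signals of -1.64, -1.71 and -1.15 in control and -2.84, -2.99 and -2.23 in CIH. The lowest control array lay above the highest CIH array, with means of -1.50 ± 0.31 and -2.68 ± 0.40 (SD, n = 3). Dim probes included, 4.87% of all 14260 probes were separated in this direction in the IP signal. Cpt1a was dim on all 3 CIH arrays and on control 3, so its CIH level is only a bound. The bound on the CIH arrays, -1.42, was above the control mean, so no fold is given.

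With no filter on dim probes, the Cpt1a IP difference was -1.18 with an SE of 0.52 (interval -2.21 to -0.157; unadjusted p = 0.0241, adjusted p = 0.349, limma), where 2.04% of the probes passed. It was -1.26 without control 1, as a plain difference in which every array but control 2 was dim. Its supernatant signal was -2.03, -2.73 and -2.68 in control and -2.84, -3.26 and -3.36 in CIH. These did not overlap either (4.23% of all probes in that direction), but the probe was dim in the supernatant on every array of both groups, so the values have no order that can be read. The log2 ratio, 0.46, 0.99 and 1.57 in control and 0.06, 0.17 and 1.10 in CIH, overlapped between groups. Without control 1 the plain differences were -0.45 in the supernatant and -0.84 in the ratio.

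For part of the Cpt1a and Gpi1 spots the processed signal is not a measured difference from background. The scanner software marks each spot's signal as positive and significant or not, and over all 91044 mRNA and circRNA spots of the 6 arrays 25745 in the IP channel and 31636 in the supernatant were not. In those spots the median processed signal was 1.02 times the software's own signal error in either channel. In the IP channel 10 of 10 Cpt1a spots were positive and significant on control 1 and on control 2, 9 of 9 on control 3, 2 of 6 on CIH 1, 6 of 10 on CIH 2 and 9 of 9 on CIH 3. In the supernatant the total was 29 of 54, with 0 of 6 on CIH 1. For Gpi1, 44 of 57 used spots were so marked in the IP channel and 45 of 57 in the supernatant. On control 3 the Gpi1 counts were 2 of 9 and 0 of 9.

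Gpi1, the glycolytic enzyme, had log2 IP signals of -2.11, -1.92 and -2.85 in control and -2.24, -2.56 and -2.01 in CIH. The groups overlapped, with means of -2.29 ± 0.49 and -2.27 ± 0.28 (SD, n = 3). Its supernatant signal was -2.69, -1.40 and -2.88 in control and -1.95, -1.73 and -1.03 in CIH, which also overlapped. Without control 1 the plain differences were 0.11 in the IP signal and 0.57 in the supernatant. On control 2 and CIH 3, where the probe was well above background in both channels, the supernatant signals were -1.40 and -1.03 and the IP signals -1.92 and -2.01.

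The log2 ratio of Gpi1 was 0.66, -0.55 and 0.08 in control and -0.24, -0.94 and -1.01 in CIH. The probe was dim on control 1, control 3, CIH 1 and CIH 2, so the order of those arrays cannot be read. On control 3, 7 of its 9 used spots had a deposited ratio of exactly 0. The means were 0.06 ± 0.61 and -0.73 ± 0.43 (SD, n = 3). Without control 1 the plain difference was -0.49 and the ranges still overlapped. The arrays with both channels above background had -0.55 (control 2) and -1.01 (CIH 3), 1 array a group.

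Apoe, the lipoprotein component, was measured on all arrays. Its log2 IP signal was 3.28, 3.17 and 2.78 in control and 2.93, 2.77 and 3.11 in CIH, and its supernatant signal 3.37, 3.74 and 3.56 in control and 3.56, 3.64 and 3.78 in CIH. Both channels overlapped between groups. The differences were -0.14 (interval -0.54 to 0.27; limma adjusted p = 0.803) in the IP signal and 0.10 (interval -0.29 to 0.50; limma adjusted p = 0.790) in the supernatant. Without control 1 they were -0.034 and 0.0088. With spike-in scaling the IP difference was 0.16 and with normexp it was 0.070, so its sign depended on the setting.

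The Apoe log2 ratio was -0.01, -0.61 and -0.74 in control and -0.58, -0.98 and -0.69 in CIH. Control 1 lay 0.57 above the next array, while the other 5 lay between -0.98 and -0.58 and overlapped between groups. The difference was -0.30 with an SE of 0.22 (interval -0.80 to 0.21; limma adjusted p = 0.999). Without control 1 it was -0.07 (limma adjusted p = 0.977), and with normexp it was 0.21. The spots of Apoe on one array scattered with an SD of 0.02 to 0.11, less than the distance of control 1 from the next array. On control 1, 35.8% of circRNAs had a lower ratio than Apoe, and on the other arrays 11.3% to 19.9%.

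Pex11a, the peroxisomal membrane protein, had log2 IP signals of 8.42, 8.20 and 8.84 in control and 8.61, 8.41 and 8.17 in CIH. The ranges overlapped, and the difference was -0.09 (interval -0.51 to 0.33; limma adjusted p = 0.860). It was -0.13 without control 1 and 0.20 with spike-in scaling. With slide as a block it was 0.12 and without control 3 it was 0.085, so here too the sign depended on the setting. The supernatant signals were 7.72, 6.95 and 7.73 in control and 7.09, 7.10 and 7.36 in CIH, with a difference of -0.29 (interval -0.86 to 0.29; limma adjusted p = 0.685), and 0.026 with spike-in scaling. It was -0.16 without control 1, -0.15 without control 3 and -0.55 without control 2 (interval -0.996 to -0.0943; limma unadjusted p = 0.0253, adjusted p = 0.346).

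The Pex11a log2 ratio was 0.78, 1.22 and 1.15 in control and 1.58, 1.21 and 0.78 in CIH, with the lowest control and the lowest CIH array at the same value to 2 decimals. The means were 1.05 ± 0.23 and 1.19 ± 0.40 (SD, n = 3), a difference of 0.14 (interval -0.42 to 0.69; limma adjusted p = 0.999). Without control 1 it was 0.0055 (limma adjusted p = 0.999), and with slide as a block 0.53 (interval -0.17 to 1.23; limma unadjusted p = 0.117). On every array 92.1% to 99.6% of circRNAs had a lower ratio than Pex11a. With IP always in red, this position includes how the probe responds to each dye, which is common to both groups. The spot SD was 0.03 to 0.08, so the arrays of one group differed by more than the spots of one array.

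**Figure D4:**
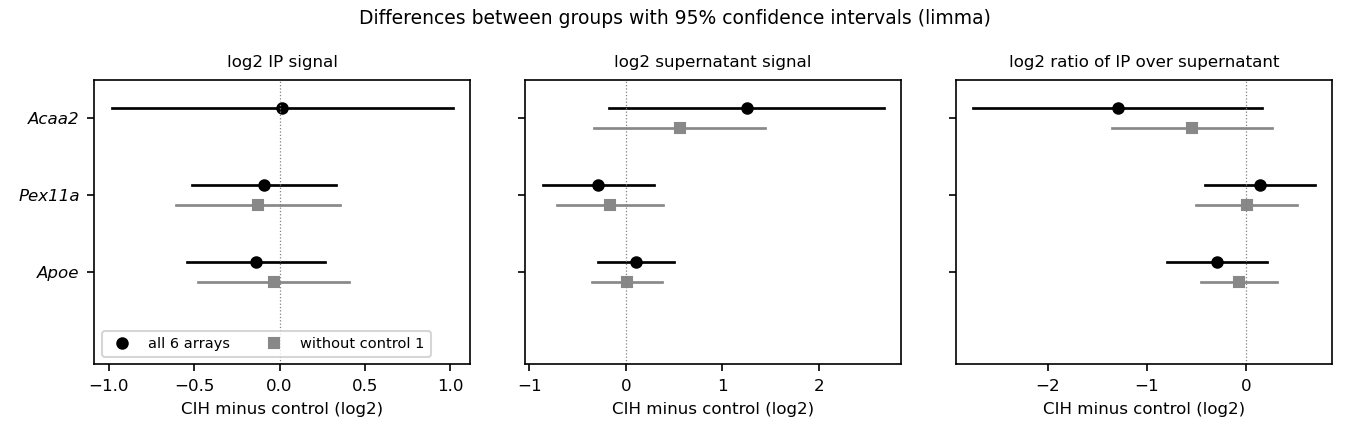
Difference between CIH and control (log2, CIH minus control) of Acaa2, Apoe and Pex11a in the ratio, the IP signal and the supernatant signal, with 95% confidence intervals from limma. Black circles use all 6 arrays and grey squares leave out control 1; every interval includes 0, and the Acaa2 ratio goes from -1.29 to -0.55 without control 1 (Acaa2 was not tested in the IP channel there).

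The place of control 1 among the arrays can be read in both channels for Apoe and Pex11a. In the ratio of Apoe it lay above the other 5 arrays, by 0.57. For Pex11a it was the lowest, at 0.782 against 0.785 on the next array. For Apoe it was the highest of the 6 arrays in the IP channel, by 0.11, and the lowest in the supernatant, by 0.20. For Acaa2, Gpi1 and Cpt1a control 1 was dim in at least the supernatant, so no distance to the other arrays is given.

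By the pattern of the ratio over the 6 arrays, each probe's own mean subtracted, the nearest of the other 15 named mRNA probes measured in both channels throughout were Gm9789 and H2-M2 for Apoe, with mean absolute differences of 0.18 and 0.20. For Pex11a the nearest was Olfr1307, at 0.15. Being nearest did not make a pattern alike: the H2-M2 ratio was highest on CIH 1 (0.51), that of Apoe on control 1 (-0.01). These ranks over 6 arrays are a description of these arrays.

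The array reads little of the surrounding pathways. Of 109 listed genes of fatty acid uptake, carnitine shuttle, beta-oxidation, peroxisome, lipoproteins, glycolysis, respiration and their regulators, 6 had an mRNA probe: the 5 genes above and Ppara, a nuclear receptor that controls fatty acid oxidation genes. Ppara was dim in both channels of all 6 arrays, so 0 of its 6 values in either channel can be read as a level. Of 10 genes of fatty acid uptake and 18 of the tricarboxylic acid cycle and respiration, 0 were on the array.

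The labelled tissue could be checked with 1 of 43 cell type markers. Hspb7, a small heat shock protein of heart muscle cells, passed in IP and supernatant on all 6 arrays, with log2 IP signals of 1.46, 1.52 and 0.68 in control and 1.51, 1.02 and 1.10 in CIH. Its log2 ratio was -0.46 on control 1 and between -3.68 and -2.90 on the others. The markers of endothelial, fibroblast, macrophage, erythroid, liver and fat cells had no probe here, so their part in these values was not tested. Probes for Il2, Olfr166, Olfr1307 and Lhx1, genes known from lymphocytes, olfactory neurons and the developing kidney and named here after their values were seen, also passed in IP and supernatant on all 6 arrays. Being above background here thus did not set apart the genes a heart is known to express.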

How the data were processed

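The deposited files are scanner output of 6 two-colour arrays (3 control, 3 CIH). The submitters' processing notes name Agilent Feature Extraction 11.0.1.1. Per the file headers, each deposited signal is a linear intensity from which the software had subtracted background and balanced the dyes within an array, and the deposited ratio is a log10 value, red over green. A spot marked as an outlier in red or green was dropped, and the log2 values of the up to 10 spots of a probe were averaged. Ratios were recomputed from the processed signals: for 77.3% of spots they differ from the deposited log10 ratio by at most 0.001, and the rest have a deposited ratio of exactly 0. These ratios were centred on the array's circRNA median, and signals set against its 75th circRNA percentile.

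The comparison of groups used limma 3.58.1 under R 4.3.3 (lmFit, then eBayes with a trend on intensity, two-sided, no covariate). The fit was also run on simulated data. These gave each probe the same spread on every array and set no lower limit for dim spots. That run therefore does not bear on control 1 or on the dim probes. The genes and lists were chosen with earlier results of these data known. All 5 genes were named whatever their values, with the 2 nearest ratio patterns for those measured throughout, of which 1 is not reported here. Names came from RefSeq accessions in a table of assembly GRCm38.p6. The file headers name another build, so no coordinates are given, and no probe sequences were used here. The samples were not treated as paired by replicate number in the main setting. The alternatives were normexp (offset 50, on median signals, without dye normalization), no dye normalization, scaling to bright circRNAs or to 47 spike-in probes, 2 other filters, spot medians, outlier spots kept, no moderation, slide or replicate number as a block, each array left out, and, added after seeing the data, the deposited log ratio. The number of arrays limits the precision.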

Additional observations from a re-analysis of the deposited data

How the results depend on the processing

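Over all alternatives run, 0 of the tested genes passed the threshold in the ratio, the IP signal or the supernatant signal. For Acaa2, Apoe and Pex11a, 18 of 150 alternative values that could be tested had the opposite sign to the main value. With normexp these were 0.21 for the Apoe ratio, -0.033 for Acaa2 IP, 0.070 for Apoe IP, 0.064 for Pex11a IP and -0.077 for Apoe supernatant. Without dye normalization the Pex11a ratio was -0.014. The IP difference of Gpi1, too dim to test and 0.021 in the main setting, was -0.043 with normexp, -0.034 without dye normalization and -0.022 with spot medians, and -0.26 to 0.21 leaving out each array. With scaling to bright circRNAs Apoe and Pex11a IP were 0.046 and 0.090, and with spike-in scaling Apoe IP was 0.16, Pex11a IP 0.20 and Pex11a supernatant 0.026. Acaa2 IP was -0.018 with outlier spots kept and -0.27 with slide as a block, where Pex11a IP was 0.12. Leaving out each array in turn gave -1.69 to -0.55 for the Acaa2 ratio, -0.054 to 0.34 for the Pex11a ratio, -0.35 to 0.35 for Acaa2 IP (-0.35 to 0.16 over the 3 cases that could be tested), -0.23 to 0.085 for Pex11a IP and 0.56 to 1.91 for Acaa2 supernatant and -0.55 to -0.15 for Pex11a supernatant. The cause of these changes was not tested. Signal close to background limits Acaa2, Gpi1 and Cpt1a.

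With the replicate number as a block, 0 of the 3 tested genes passed in the ratio, 0 in the IP signal and 0 in the supernatant signal. Over all probes 0 of 6924 passed in the ratio, 2 of 6282 in the IP signal and 0 of 5432 in the supernatant signal. The deviations of samples with the same number correlated at 0.24, 0.10 and -0.03 in the ratio. In the IP signal the values were -0.02, 0.02 and -0.24, and in the supernatant signal 0.13, 0.27 and -0.01. So few correlations do not settle whether the numbers pair the samples.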
